A study of Mus musculus with 8 samples.

Results

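The 10 CC chemokine genes *Ccl2*, *Ccl3*, *Ccl4*, *Ccl5*, *Ccl6*, *Ccl7*, *Ccl8*, *Ccl9*, *Ccl11*, and *Ccl20* were examined in mouse pancreas. They were taken by gene symbol from the 48709 genes listed in the RNA-Seq data, and all 10 were found. There were 8 libraries from 8-week-old male mice, 2 in each of 4 groups: WT saline, cKO saline, WT FAEE-SAP, and cKO FAEE-SAP. FAEE-SAP is a severe acute pancreatitis model in which fasted mice receive i.p. injections of palmitoleic acid (POA) with ethanol, preceded by saline and given with buprenorphine at the first injection, and controls receive saline. The pancreas was taken 24 hours later. The cKO mice are *Pfkfb3* fl/fl; *Pdx1*-Cre, made from a floxed line created by CRISPR/Cas9 in C57BL/6J, and their Cre is driven by the *Pdx1* promoter, which is active in the pancreatic epithelium and not in the leukocytes that make many chemokines. WT mice were purchased, and their strain and relation to the cKO litters are not given in the sources used here. No label says whether a library is 1 mouse, so p-values measure the spread between libraries, which may be in part technical.

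CC chemokines are small secreted proteins, named for a pair of adjacent cysteines, that bind G protein–coupled receptors (CCR) on leukocytes and draw these cells into tissue. *Ccl2* (MCP1) and *Ccl7* recruit monocytes through CCR2, *Ccl11* (eotaxin) acts on CCR3 of eosinophils, and *Ccl3*, *Ccl4*, and *Ccl5* draw monocytes and lymphocytes, *Ccl3* and *Ccl5* in part through CCR1. *Ccl6* and *Ccl9* are rodent genes made by macrophages and other myeloid cells, and *Ccl20* attracts lymphocytes and dendritic cells through CCR6. In acute pancreatitis, injured acinar cells, stromal cells, and incoming leukocytes are all known sources of such signals.

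The window around the adjacent cysteine codons shows what the family shares. Below are 30 coding bases of 9 of the genes, read 5′ to 3′ on the gene's strand from GENCODE transcripts (GRCm38), with both cysteine codons in capitals.
Ccl2 (chr11:82036494-82036523, + strand): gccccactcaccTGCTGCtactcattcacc
Ccl7 (chr11:82046526-82046555, + strand): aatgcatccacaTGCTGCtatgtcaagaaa
Ccl8 (chr11:82116044-82116073, + strand): gctccagtcaccTGCTGCtttcatgtacta
Ccl11 (chr11:82061684-82061713, + strand): atcccaacttccTGCTGCtttatcatgacc
Ccl4 (chr11:83663470-83663499, + strand): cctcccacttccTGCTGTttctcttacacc
Ccl5 (chr11:83529230-83529259, - strand): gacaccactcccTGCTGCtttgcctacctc
Ccl6 (chr11:83589374-83589403, - strand): acttcttcagacTGCTGCttctcttatgcc
Ccl9 (chr11:83575914-83575943, - strand): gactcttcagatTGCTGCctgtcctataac
Ccl20 (chr1:83117801-83117830, + strand): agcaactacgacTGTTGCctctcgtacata
All 9 windows lay within 1 exon. This was exon 3 of 4 in *Ccl6* and *Ccl9*, and exon 2 of 3 in the other 7 genes. In *Ccl6* and *Ccl9* the first cysteine was codon 50 and 57 of the reading frame, against codon 32 to 34 in the others, so this pair differs from the rest in gene structure.

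Of the 10 genes, 9 lie in 2 clusters on chromosome 11. *Ccl2* (chr11:82035571-82037453), *Ccl7* (chr11:82045712-82047525), *Ccl11* (chr11:82057823-82062955), and *Ccl8* (chr11:82115185-82116799) follow each other on the + strand. *Ccl5* (chr11:83525778-83530518), *Ccl9* (chr11:83572919-83578636), *Ccl6* (chr11:83587882-83593087), and *Ccl3* (chr11:83647844-83649355) are on the - strand of the other cluster, next to *Ccl4* (chr11:83662584-83664683) on the + strand. *Ccl20* (chr1:83116766-83119167, + strand) stands alone.

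RefSeq promoter sequences (GRCm38.p6) were at hand for 5 of the 10 genes, *Ccl3*, *Ccl6*, *Ccl8*, *Ccl9*, and *Ccl20*. The 250 bases before the start are shown for *Ccl6* and *Ccl9*, neighbours whose transcripts changed alike, and for *Ccl3*, called between genotypes with FAEE-SAP, and *Ccl8*, whose FAEE-SAP libraries did not overlap between genotypes.
Ccl6 (chr11:83593088-83593337, - strand): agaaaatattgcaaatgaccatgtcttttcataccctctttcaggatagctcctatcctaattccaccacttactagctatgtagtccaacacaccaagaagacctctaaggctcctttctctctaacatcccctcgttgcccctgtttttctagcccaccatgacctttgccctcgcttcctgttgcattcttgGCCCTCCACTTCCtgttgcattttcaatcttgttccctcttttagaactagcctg
Ccl9 (chr11:83578637-83578886, - strand): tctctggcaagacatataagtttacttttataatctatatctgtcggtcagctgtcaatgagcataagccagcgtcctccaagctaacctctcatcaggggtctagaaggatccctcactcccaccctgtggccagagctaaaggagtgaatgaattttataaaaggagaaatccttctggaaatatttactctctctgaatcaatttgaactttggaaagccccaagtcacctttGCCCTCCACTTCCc
Ccl8 (chr11:82114935-82115184, + strand): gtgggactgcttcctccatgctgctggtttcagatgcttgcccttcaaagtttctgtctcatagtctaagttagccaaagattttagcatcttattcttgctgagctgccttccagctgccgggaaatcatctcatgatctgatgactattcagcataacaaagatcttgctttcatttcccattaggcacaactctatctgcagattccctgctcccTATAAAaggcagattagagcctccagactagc
Ccl3 (chr11:83649379-83649628, - strand): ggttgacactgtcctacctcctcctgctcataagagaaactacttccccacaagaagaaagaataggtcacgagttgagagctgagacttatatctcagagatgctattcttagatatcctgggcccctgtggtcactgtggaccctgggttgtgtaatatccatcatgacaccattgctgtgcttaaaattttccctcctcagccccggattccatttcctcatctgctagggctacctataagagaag
The capitals in *Ccl6* and *Ccl9* mark the longest run of bases that both share, 13 bases that begin at position -55 in *Ccl6* and -14 in *Ccl9*, counted back from -1 at the base before the start. On either strand, this run was present in 5 of 32851 RefSeq promoters (0.0152%), *Ccl6* and *Ccl9* among them. It was picked because these promoters share it, so the low share tests nothing. Among the 10 pairs of the 5 promoters, *Ccl6* and *Ccl9* had the highest local alignment score, 29, and the next pair, *Ccl8* and *Ccl20*, had 23. The capitals in *Ccl8* mark TATAAA at position -32. On both strands, TATAAA was in 12.4% of all promoters, and *Ccl9* held 3 matches, 2 of which overlap each other. The decamer bound by NF-kB matched *Ccl9* at -35 and *Ccl20* at -80, both on the reverse strand, against 7.25% of promoters. The AP-1 motif TGANTCA, which reads alike on both strands, matched *Ccl9* at -53, against 6.75%. The STAT6 motif TTCNNNNGAA was in none of the 5 windows, against 5.85%. These matches describe letters in the windows and were not tested for binding.

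The values are RPKM, reads per exon length and per total reads of the library, divided by a factor for each library so that the typical gene is level across libraries (scaled RPKM). Factors ran from 0.621 to 2.02 and were highest in WT FAEE-SAP, in which the acinar enzyme transcripts that fill these libraries were lower. As deposited, without the factors, the median of all genes shifted by 1.24 on the log2 scale with FAEE-SAP in WT and by -0.91 in cKO against WT with FAEE-SAP, so changes below are relative to the typical gene. The scaling also sets how many calls go each way. Over all genes 339 were higher and 412 lower with FAEE-SAP in WT, against 7184 and 86 on the values as deposited, and 90 were higher and 39 lower in cKO than in WT with FAEE-SAP, against 73 and 4354 as deposited and 42 and 37 with quantile normalization. The libraries held 22.9 to 37.8 M reads by an approximate recovery from the low values, and the 10 genes together had 279 to 2762 reads per library. All 12 acinar markers were present in every library, with a summed level of 89729 to 390077 scaled RPKM, which fits the tissue label. With saline, *Pfkfb3* was 1.70 and 1.69 scaled RPKM in WT and 0.880 and 2.10 in cKO. With FAEE-SAP the WT libraries had 1.85 and 3.21 and the cKO libraries 1.74 and 2.82, so the genotypes overlapped on this scale. As deposited, those with FAEE-SAP did not overlap, at 3.75 and 6.22 RPKM in WT but 1.82 and 2.75 in cKO. The deletion removes exons 2 and 3 only, so a value for the whole gene does not test the genotype labels.

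With FAEE-SAP in WT mice, 4 CC chemokine transcripts rose and 1 fell. Among these called genes *Ccl2* and *Ccl3* rose the most, *Ccl6* and *Ccl9* rose 2.30-fold and 2.72-fold, and *Ccl8* fell. Calls needed an adjusted p below 0.05 in limma and a 2-fold change or more. By this rule 5 of the 8 genes that passed the filter on low values were called, against 6.89% of the 10894 genes tested, and their median log2 fold change was 1.32 against 0.02 for all genes. *Ccl2*, *Ccl3*, and *Ccl7* passed the filter through the FAEE-SAP libraries alone and so had to be higher, which makes this count no measure of the family. Without either WT FAEE-SAP library, these 3 genes could not be tested and *Ccl6*, *Ccl8*, and *Ccl9* were not called (adjusted p = 0.0757 to 0.18), and 2 members were called without either WT saline library.

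*Ccl2* was 0.170 and 0.148 scaled RPKM in WT saline and 5.11 and 1.80 in WT FAEE-SAP. Both FAEE-SAP libraries were far above both saline libraries, which held about 4 reads each, while the FAEE-SAP libraries differed from each other by more than any saline pair. The log2 fold change was 3.60 (SE 0.48, adjusted p = 0.0159). *Ccl7*, the neighbour of *Ccl2* and a ligand of the same receptor, was 0 and 0.369 in WT saline and 4.76 and 0.985 in WT FAEE-SAP. It followed *Ccl2* in having its high value in the same library, but its spread left it uncalled (log2 fold change 3.41, SE 0.94, adjusted p = 0.0848), although it passed on the values as deposited (log2 fold change 4.43, adjusted p = 0.00429). *Ccl3*, the gene of MIP-1α, was 0.0632 and 0 in WT saline, from 1 read in all, and 1.04 and 1.13 in WT FAEE-SAP, from 37 and 55 reads. Here the FAEE-SAP libraries lay close together (log2 fold change 3.21, SE 0.33, adjusted p = 0.00767), and the ratio of reads was 37.1 with a 95% counting interval of 6.50 to 1483, while the fitted value depends on the 0.1 added to each RPKM.

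*Ccl4*, the neighbour of *Ccl3* that encodes MIP-1β, did not reach the filter. It had 1 and 0 reads in WT saline and 7 and 21 in WT FAEE-SAP, with 0.228 and 0.502 scaled RPKM in the latter, and the ratio of reads was 11.3 (95% counting interval 1.87 to 462). *Ccl20* also stayed under the filter, with 0 and 2 reads in WT saline and 15 and 3 in WT FAEE-SAP. Its ratio of 3.63 had an interval of 0.870 to 32.3, so a change was not detectable at this depth. Counting intervals here cover reads only and not the spread between libraries.

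*Ccl6*, the most abundant of the 10 per length in 7 of the 8 libraries, was 3.10 and 4.66 scaled RPKM in WT saline and 9.19 and 8.59 in WT FAEE-SAP. *Ccl9* was 1.001 and 1.33 in WT saline and 3.40 and 3.23 in WT FAEE-SAP. In both genes the FAEE-SAP pair lay close together and above the saline pair. The log2 fold change was 1.20 for *Ccl6* (SE 0.24, adjusted p = 0.0435) and 1.44 for *Ccl9* (SE 0.23, adjusted p = 0.0244). Both rose more on the values as deposited, to 2.50 and 2.71, since the libraries of WT FAEE-SAP have the highest factors.

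*Ccl8*, encoding MCP-2, moved the other way. It was 0.947 and 1.07 scaled RPKM in WT saline and 0.169 and 0.309 in WT FAEE-SAP, without overlap (log2 fold change -1.74, SE 0.30, adjusted p = 0.0306). The reads were few, 10 and 13 against 4 and 10, and on the values as deposited the change was -0.70 with an adjusted p of 0.096. *Ccl11* was 2.55 and 1.99 in WT saline and 3.88 and 3.53 in WT FAEE-SAP, which did not pass (log2 fold change 0.69, SE 0.22, adjusted p = 0.109) but passed on the values as deposited, with a log2 fold change of 1.97 (adjusted p = 0.00146). *Ccl5*, the gene of RANTES, was 1.41 and 5.02 in WT saline and 1.55 and 0.904 in WT FAEE-SAP. Its groups overlapped, its log2 fold change was -1.11 (SE 0.59, adjusted p = 0.289), and the sign turned to 0.13 on the values as deposited.

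**Figure D1:**
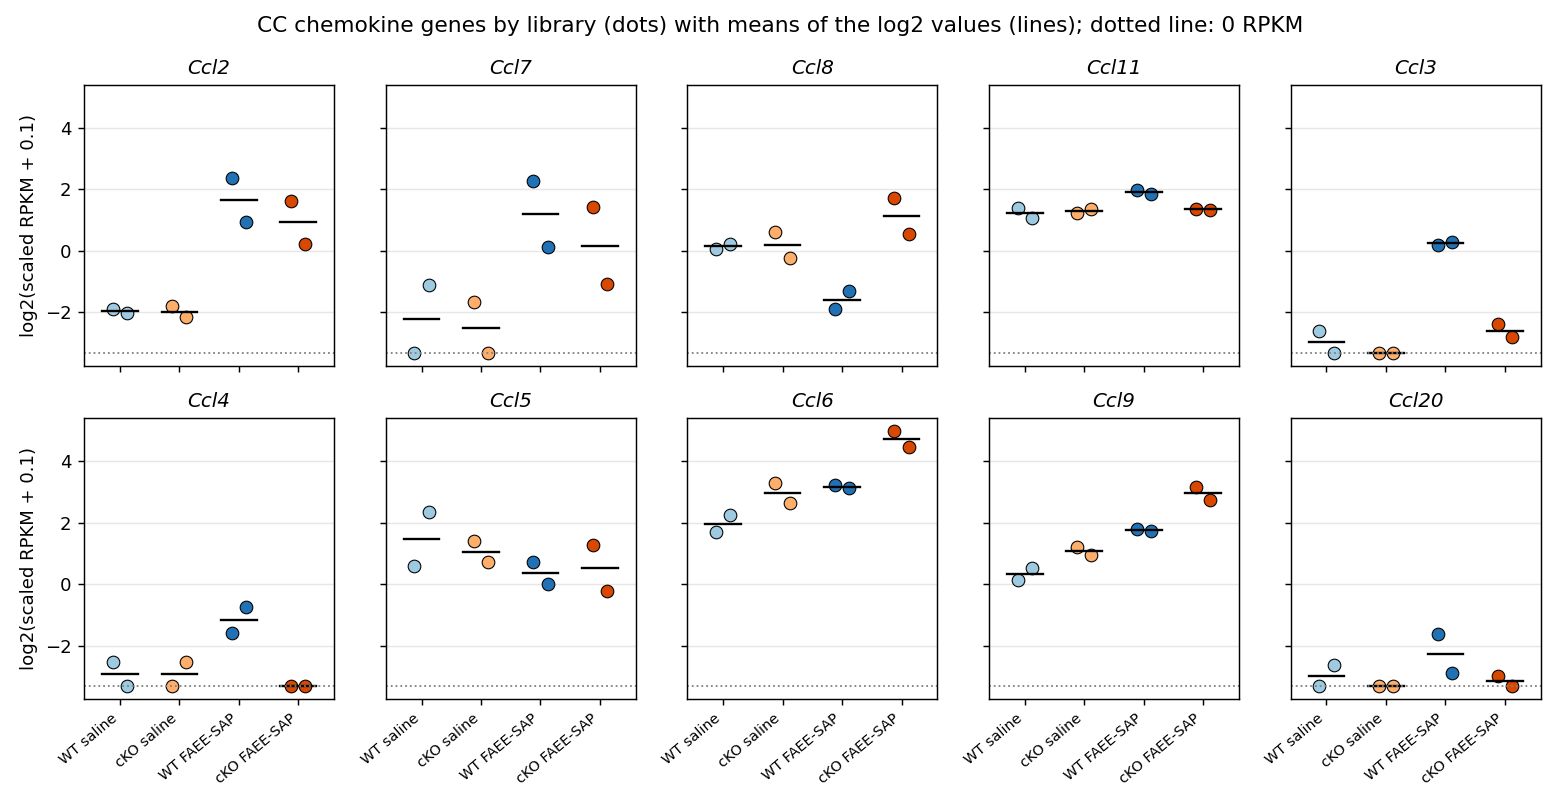
Level of each CC chemokine gene in the 8 libraries, as log2(scaled RPKM + 0.1), with 1 dot per library and a line at the mean of the 2 log2 values in each group. *Ccl3* and *Ccl4* lie at or near the dotted line of 0 RPKM with saline, *Ccl6* and *Ccl9* step up to their highest values in cKO FAEE-SAP, and *Ccl8* is lowest in WT FAEE-SAP at 0.169 and 0.309 scaled RPKM.

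In cKO mice the same treatment was followed by higher *Ccl2*, *Ccl6*, and *Ccl9* in both FAEE-SAP libraries than in either saline library, but no change passed the test. Of 6 members tested, 0 were called by limma, against 0.0531% of 9423 genes (5 genes), and 3 of the 6 had an unadjusted p under 0.05, as had 901 of the 9423 genes. The median log2 fold change was 1.36 for the 6 members and -0.04 for all genes. *Ccl2* passed the filter through the FAEE-SAP libraries alone. With so few genes called over the whole transcriptome, the lack of a call does not show that a gene stayed level.

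*Ccl6* was 9.65 and 6.19 scaled RPKM in cKO saline and 31.6 and 22.2 in cKO FAEE-SAP. *Ccl9* was 2.21 and 1.82 in cKO saline and 8.78 and 6.62 in cKO FAEE-SAP. The groups did not overlap in either gene. The log2 fold change was 1.76 for *Ccl6* (95% interval 0.96 to 2.56, adjusted p = 0.263) and 1.87 for *Ccl9* (95% interval 1.28 to 2.46, adjusted p = 0.157). *Ccl2* was 0.187 and 0.126 in cKO saline and 3.01 and 1.08 in cKO FAEE-SAP, a log2 fold change of 2.91 (95% interval 1.60 to 4.22, adjusted p = 0.263). As in WT, the libraries of the FAEE-SAP group were well apart from each other for *Ccl2*.

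*Ccl8* was 1.42 and 0.750 in cKO saline and 3.18 and 1.36 in cKO FAEE-SAP. Here the groups overlapped and the estimate was on the higher side (log2 fold change 0.95, 95% interval -0.31 to 2.20, adjusted p = 0.573), whereas WT libraries were lower with FAEE-SAP. *Ccl11* was 2.25 and 2.48 with saline and 2.50 and 2.42 with FAEE-SAP, and its interval ran from -0.39 to 0.51 around a log2 fold change of 0.06. *Ccl5* was 2.53 and 1.55 with saline and 2.31 and 0.760 with FAEE-SAP, also overlapping.

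The genes that were rarest in cKO saline remained rare with FAEE-SAP, except *Ccl7*. *Ccl3* had 0 reads in both cKO saline libraries and 2 and 1 reads in cKO FAEE-SAP. *Ccl4* had 0 and 1 reads with saline and 0 in both FAEE-SAP libraries, and *Ccl20* had no read with saline and 1 with FAEE-SAP. No fold is given for these, since both groups were at or under the 3 reads a library needs for a value above the floor. *Ccl7* went from 4 and 0 reads to 60 and 9, and its scaled RPKM was 0.213 and 0 with saline and 2.59 and 0.373 with FAEE-SAP, under the filter.

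**Figure D2:**
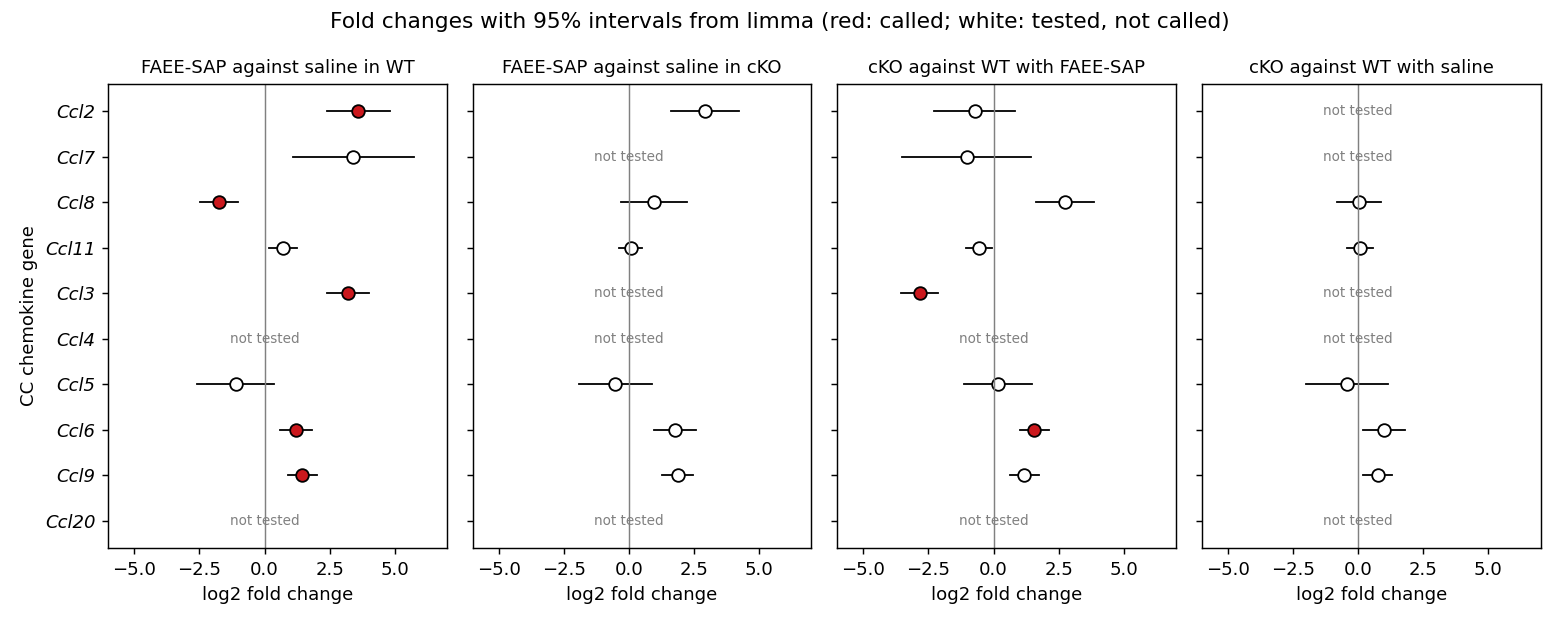
Log2 fold change of each tested gene with its 95% interval from limma, in 4 panels, 1 for each comparison of 2 groups. Red dots are called and white dots are not. 5 genes are red for FAEE-SAP in WT (4 to the right, *Ccl8* to the left), none in cKO, *Ccl3* (left) and *Ccl6* (right) for cKO against WT with FAEE-SAP, and none with saline.

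Between genotypes under FAEE-SAP, the comparison that bears on the role of *Pfkfb3* in the model, *Ccl3* was lower and *Ccl6* higher in cKO. *Ccl9* and *Ccl8* were also higher in both cKO libraries than in both WT libraries without passing the test, and *Ccl4* had no read in cKO. *Ccl2* and *Ccl7* overlapped between genotypes, *Ccl2* on the scaled values only. Of 8 members tested, 2 were called, against 1.17% of 11008 genes, with a median log2 fold change of -0.20 for the members and 0.00303 for all genes. *Ccl3* passed the filter through WT libraries alone. Without either WT FAEE-SAP library, *Ccl3* could not be tested and *Ccl6* was not called (adjusted p = 0.135 and 0.298), leaving out cKO replicate 1 left 1, and leaving out cKO replicate 2 left 2.

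*Ccl3* was 1.04 and 1.13 scaled RPKM in WT FAEE-SAP, against 0.0904 and 0.0433 in cKO FAEE-SAP, from 37 and 55 reads against 2 and 1. These groups were far apart for their spread (log2 fold change -2.84, SE 0.29, adjusted p = 0.0207). Reads were 16.5-fold lower in cKO with a 95% counting interval of 5.47 to 81.4. With cKO under 3 reads per library, the fitted value and its spread depend on the 0.1 added to each RPKM. Over the alternatives the log2 fold change ran from -3.91 to -0.97, and with 1 added instead *Ccl3* was not called. *Ccl4* had 7 and 21 reads in WT and 0 in both cKO libraries, which is at least 2.37-fold lower when each cKO library is set at 3 reads. *Ccl20* had 15 and 3 reads in WT and 1 and 0 in cKO, a ratio of 9.68 (95% counting interval 1.53 to 403) that rests mostly on WT FAEE-SAP replicate 1. So the neighbours *Ccl3* and *Ccl4* both had their reads in WT FAEE-SAP.

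*Ccl6* was 9.19 and 8.59 in WT FAEE-SAP, against 31.6 and 22.2 in cKO FAEE-SAP, with no overlap. The log2 fold change was 1.56 (SE 0.23, adjusted p = 0.0499), just inside the threshold. On the values as deposited, *Ccl6* was 18.6 and 16.6 RPKM in WT and 33.1 and 21.6 in cKO, still higher in cKO but with a log2 fold change of 0.60 (adjusted p = 0.0844), so the size of this difference depends on the scaling. *Ccl9* was 3.40 and 3.23 in WT, compared with 8.78 and 6.62 in cKO (log2 fold change 1.18, SE 0.22, adjusted p = 0.083), but on the values as deposited the groups overlapped and the log2 fold change was 0.23. *Ccl8* was 0.169 and 0.309 in WT, compared with 3.18 and 1.36 in cKO, the largest difference upward among the members (log2 fold change 2.73, SE 0.45, adjusted p = 0.0691), from 4 and 10 reads against 47 and 21. As deposited, *Ccl8* was 0.341 and 0.598 RPKM in WT but 3.33 and 1.33 in cKO and was called (log2 fold change 1.997, adjusted p = 0.021).

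For *Ccl2* the values were 5.11 and 1.80 in WT FAEE-SAP, against 3.01 and 1.08 in cKO FAEE-SAP. Each genotype had 1 high and 1 low library, and the log2 fold change of -0.72 had a 95% interval of -2.27 to 0.84 (adjusted p = 0.582), which spans a decrease and an increase of this monocyte chemokine. On the values as deposited, *Ccl2* was 10.3 and 3.49 RPKM in WT but 3.15 and 1.051 in cKO, with no overlap, and the log2 fold change was -1.66 (adjusted p = 0.0764). The interval of *Ccl7* was wider, from -3.50 to 1.45 around -1.03. *Ccl11* was 3.88 and 3.53 in WT, compared with 2.50 and 2.42 in cKO, which did not overlap but did not pass (log2 fold change -0.57, SE 0.20, adjusted p = 0.209), whereas as deposited it was 7.86 and 6.83 RPKM in WT but 2.61 and 2.36 in cKO and passed (log2 fold change -1.52, adjusted p = 0.00977). *Ccl5* overlapped between genotypes, at 1.55 and 0.904 in WT and 2.31 and 0.760 in cKO (log2 fold change 0.16, adjusted p = 0.902, and -0.75 on the values as deposited).

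With saline, no member passed the test between genotypes. On the scaled values, *Ccl6* and *Ccl9* were the only tested members whose WT and cKO libraries did not overlap. As deposited, *Ccl11* did not overlap either, at 1.86 and 1.72 RPKM in WT but 1.40 and 1.65 in cKO. How many of all genes did not overlap was not counted, so this is no measure of the pair. None of 5 members tested was called by limma, against 0% of 8715 genes (0 genes, with 198 at an unadjusted p under 0.05), and 2 of the 5 members had an unadjusted p under 0.05. These were *Ccl6*, at 3.10 and 4.66 in WT and 9.65 and 6.19 in cKO (log2 fold change 1.004, 95% interval 0.20 to 1.81), and *Ccl9*, at 1.001 and 1.33 in WT and 2.21 and 1.82 in cKO (log2 fold change 0.75, 95% interval 0.19 to 1.31). In both, each cKO library was above each WT library before any pancreatitis, with an adjusted p of 0.9999. *Ccl8* and *Ccl11* overlapped on the scaled values, with intervals of -0.81 to 0.88 and -0.43 to 0.56. *Ccl5* was most uneven within WT, where replicate 2 had 5.02 against 1.41 in replicate 1.

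Whether the response to FAEE-SAP differed between genotypes was tested by the interaction over all 8 libraries. None of 8 members was called by limma, against 0.0719% of 11133 genes (8 genes), and 3 had an unadjusted p under 0.05, as had 1398 of the 11133 genes. They were *Ccl3*, whose rise was smaller in cKO by 2.49 on the log2 scale as estimated (interaction -2.49, SE 0.55, adjusted p = 0.196), *Ccl8* (2.69, SE 0.63, adjusted p = 0.203), and *Ccl11* (-0.64, SE 0.26, adjusted p = 0.38). On the values as deposited, *Ccl3* (-3.48, adjusted p = 0.043) and *Ccl11* (-1.30, adjusted p = 0.0445) were called. For *Ccl6* and *Ccl9* the interaction was 0.56 (95% interval -0.42 to 1.54) and 0.43 (95% interval -0.30 to 1.16), and both turned negative on the values as deposited. A larger response of *Ccl6* or *Ccl9* in cKO was therefore not shown.

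The proportion of *Ccl6* to *Ccl9* varied less than their level. The ratio of *Ccl6* to *Ccl9* in scaled RPKM was 2.66 to 4.36 over the 8 libraries, while their summed level ran from 4.10 in a WT saline library to 40.4 in a cKO FAEE-SAP library. The ratio was lowest in the WT FAEE-SAP libraries, at 2.70 and 2.66. By contrast, the ratio of *Ccl6* to *Ccl2* was 18.2 to 51.5 with saline, but with FAEE-SAP 1.80 and 4.76 in WT and 10.50 and 20.6 in cKO. The make-up of the family thus differed by group. *Ccl6* and *Ccl9* together held 40.9% to 44.0% of the summed scaled RPKM of the 10 genes in WT and 61.7% to 64.3% in cKO with saline, and 42.6% and 56.2% in WT but 74.7% and 82.7% in cKO with FAEE-SAP. With FAEE-SAP, *Ccl2* held 17.3% and 8.58% in WT but 5.57% and 3.10% in cKO. In scaled RPKM, the sum of all 10 with saline was 9.32 and 14.7 in WT, compared with 18.5 and 12.99 in cKO, and with FAEE-SAP it was 29.6 and 21.0 in WT, compared with 54.1 and 34.8 in cKO. The sums depend on the library factors, and as deposited those with FAEE-SAP overlapped, at 59.8 and 40.7 RPKM in WT but 56.6 and 34.0 in cKO. The shares are descriptions and do not, since a factor cancels within a library.

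**Figure D3:**
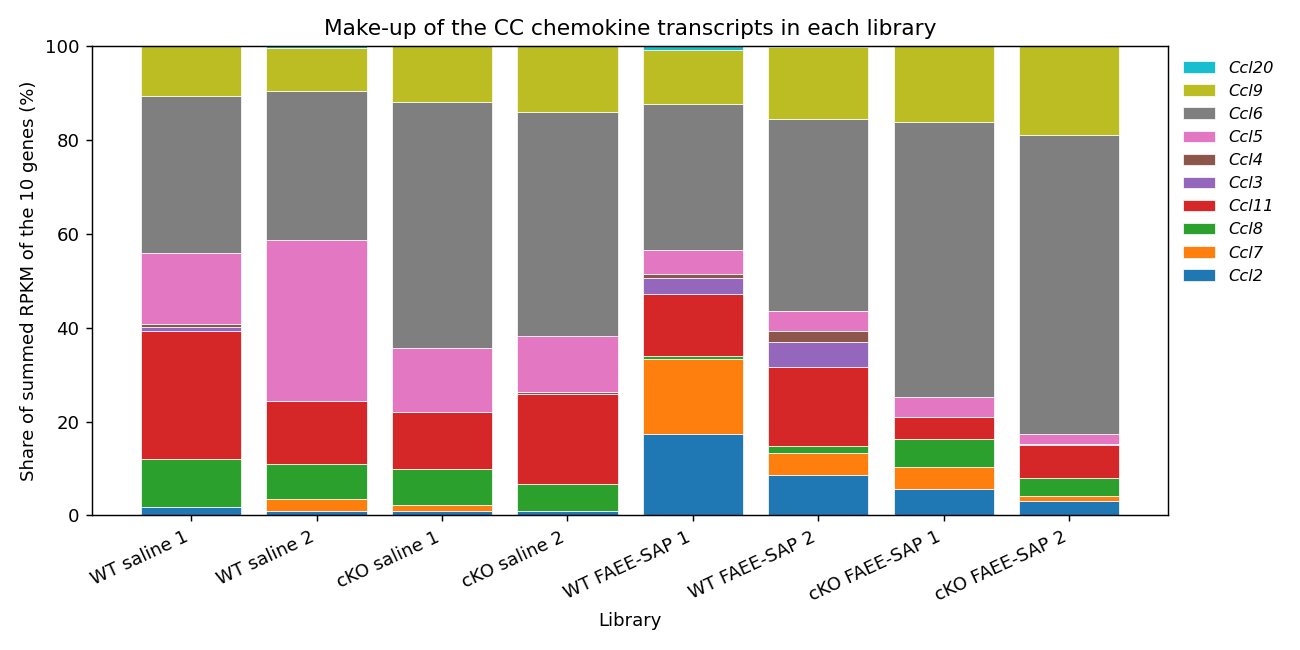
Share of each gene in the summed RPKM of the 10 CC chemokine genes, in percent, as 1 stacked bar for each of the 8 libraries. *Ccl6* (grey) and *Ccl9* (olive) fill 74.7% and 82.7% of the bars of cKO FAEE-SAP, and *Ccl2* (blue) and *Ccl3* (purple) are widest in the 2 bars of WT FAEE-SAP.

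The receptors were examined as a list of 14 genes. With FAEE-SAP in WT, 1 of 6 tested was called higher and none lower, against 6.89% of all genes called in either direction, 4 of the 6 having passed the filter through the FAEE-SAP libraries alone, and in the other comparisons none was called. *Ccr1*, the receptor of CCL3, CCL5, CCL6, and CCL9, was 0.0684 and 0.164 scaled RPKM in WT saline and 0.974 and 0.981 in WT FAEE-SAP (log2 fold change 2.35, SE 0.31, adjusted p = 0.0151). It was the receptor called, and it was among those that passed the filter through the FAEE-SAP libraries alone and so had to be higher. In cKO it was 0.347 and 0.254 with saline and 0.868 and 0.831 with FAEE-SAP, and the log2 fold change of cKO against WT with FAEE-SAP was -0.18 (adjusted p = 0.71), with both cKO libraries under both WT libraries by a margin that was wider as deposited (0.909 and 0.811 RPKM in cKO, 1.97 and 1.90 in WT). *Ccr2*, the receptor of CCL2 and CCL7, was 0.563 and 0.390 in WT FAEE-SAP, against 1.67 and 1.048 in cKO FAEE-SAP (log2 fold change 1.32, SE 0.32, adjusted p = 0.128). That difference was toward cKO, the opposite of the estimate for *Ccl2*, but was not called, and on the values as deposited the groups overlapped. *Ccr6*, the receptor of CCL20, was at most 0.292 in any library, and *Ccr3*, the receptor of eotaxin, at most 0.116.

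Of 26 genes listed as inducers of CC chemokines, 21 were tested with FAEE-SAP in WT, and 5 were called higher and none lower, against 6.89% of all genes called in either direction. Of the 21, 3 (*Il1a* and *Il1b* among them) passed the filter through the FAEE-SAP libraries alone and so had to be higher. The median log2 fold change of the 21 was 0.64, against 0.02 for all genes. *Il1b*, the gene of the cytokine IL-1β, went from 0 and 0.111 scaled RPKM with saline to 1.36 and 1.32 with FAEE-SAP in WT (log2 fold change 3.31, adjusted p = 0.0121), and its cKO libraries had 0.0895 and 0.0502 with saline and 0.599 and 0.226 with FAEE-SAP. *Il1a*, its relative IL-1α, rose in WT (log2 fold change 1.54, adjusted p = 0.0322) to 0.338 and 0.312, and its cKO FAEE-SAP libraries had 0.0877 and 0.0672. For both, cKO was under WT with FAEE-SAP in both libraries but not past the threshold (adjusted p = 0.133 and 0.119). *Myd88*, the adaptor of IL-1 and Toll-like receptors, was 8.04 and 9.57 in WT FAEE-SAP, against 2.81 and 2.39 in cKO FAEE-SAP, and was the only listed inducer called between genotypes (log2 fold change -1.72, SE 0.21, adjusted p = 0.0336). *Rela*, an NF-kB subunit, and *Tnfrsf1a*, the TNF receptor, rose in WT as well, with log2 fold changes of 1.85 (adjusted p = 0.0234) and 1.79 (adjusted p = 0.0114). Under FAEE-SAP, 19 of the 21 tested were lower in cKO as estimated, with a median of -0.51 against 0.00303 for all genes, and 21 of 21 on the values as deposited, although 2 of them passed this filter through WT libraries alone. None was called in cKO with FAEE-SAP, with saline, or in the interaction.

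**Figure D4:**
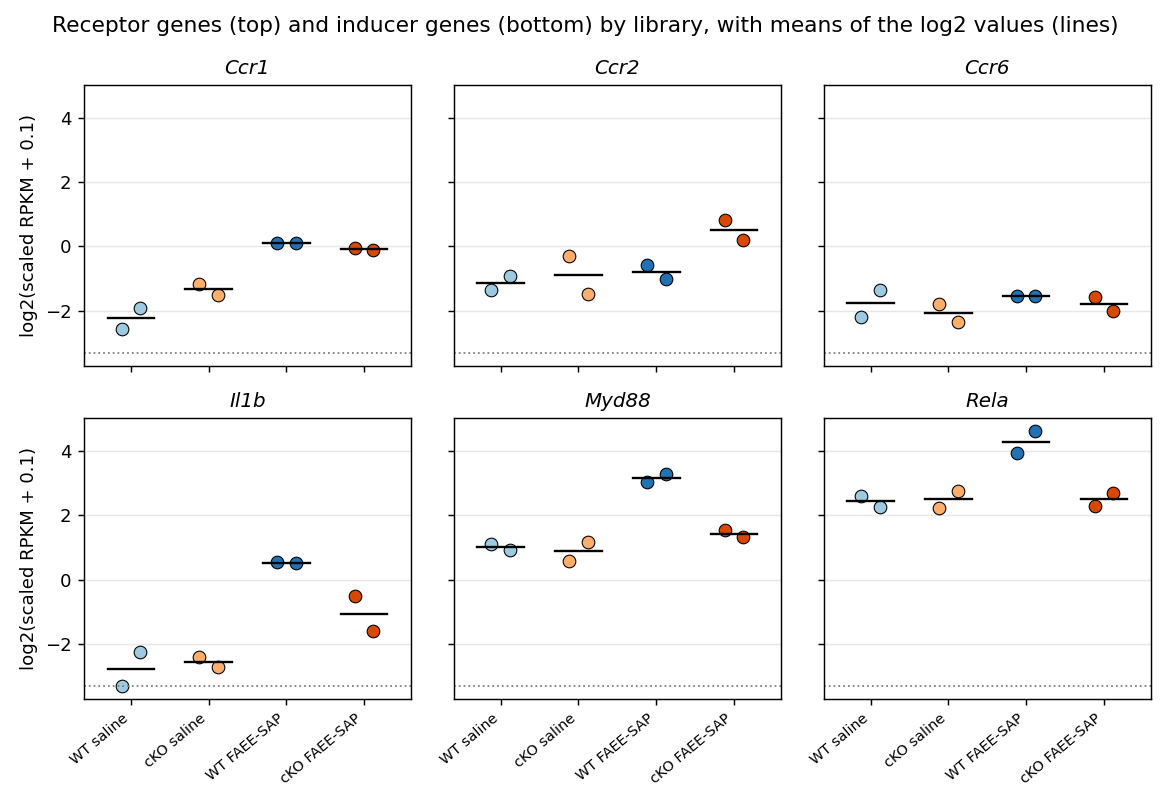
Levels of 3 receptor genes (top row) and 3 inducer genes (bottom row) in the 8 libraries, as log2(scaled RPKM + 0.1), with 1 dot per library and lines at the mean of the log2 values. *Ccr1* is near 1 scaled RPKM in both FAEE-SAP groups, *Ccr2* is highest in cKO FAEE-SAP, and *Myd88* and *Rela* are high in WT FAEE-SAP alone.

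The other CC ligands (12 of 13 listed genes in the data) had 0 calls in every comparison by limma. None had an adjusted p under that of *Ccl12*, a neighbour of *Ccl2*, at 0.0592 with FAEE-SAP in WT. That gene had 1 read in each WT saline library, passed the filter through the FAEE-SAP libraries alone, and so had to be higher. *Ccl12* had 0.0901 and 0.0787 scaled RPKM in WT saline and 1.97 and 0.470 after FAEE-SAP in WT, with 0.580 and 0.309 after FAEE-SAP in cKO, and is named after its values were seen.

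Several cell type markers moved with the chemokines, and their part in the results was not tested. In whole tissue, fewer cells of a type and less RNA per cell cannot be told apart. Macrophage or monocyte markers (12 of 13 listed genes in the data, none at 0) summed to 80.6 to 99.4 scaled RPKM in the 4 saline libraries, to 117 and 88.9 in WT FAEE-SAP, and to 137 and 120 in the cKO libraries with FAEE-SAP. This sum was highest in cKO FAEE-SAP, as *Ccl6* and *Ccl9* were, though over a narrower range. As estimated, 9 of 12 of its genes were higher in cKO than in WT with FAEE-SAP. Of the 12, 0 were called higher and 1 lower, against 1.17% of all genes called in either direction. This order depends on the scaling. On the values as deposited the sums with FAEE-SAP were 236 and 172 RPKM in WT and only 144 and 117 in cKO, and 10 of 12 genes were lower in cKO. The one called was *Cd14*, a lipopolysaccharide coreceptor, which was 14.3 and 12.6 in WT FAEE-SAP, against 2.40 and 2.74 in cKO FAEE-SAP (log2 fold change -2.34, SE 0.20, adjusted p = 0.015). With FAEE-SAP in WT, 2 of the 12 were called higher, against 6.89% of all genes called in either direction. They were *Cd14* and *Fcgr1*, an IgG receptor that passed the filter through the FAEE-SAP libraries alone (log2 fold change 2.11, SE 0.28, adjusted p = 0.0157). As estimated, 5 of the 12 were higher and 7 lower, with a median of -0.02, but as deposited all 12 were higher, with a median of 1.26. On the scaled values, the order of the sums between genotypes was not particular to this list. With FAEE-SAP the islet sum was 411 and 427 in cKO but 170 and 228 in WT, while the neutrophil sum went the other way.

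Neutrophil markers, like *Ccl3*, were highest in WT FAEE-SAP, also on the values as deposited. With FAEE-SAP they summed to 60.9 and 57.2 in WT but to 20.3 and 13.9 in cKO, and with saline to 1.66 to 3.96. With FAEE-SAP in WT, 7 of the 12 were tested and all 7 were called higher, but 6 of them passed the filter through the FAEE-SAP libraries alone and so had to be higher, against 6.89% of all genes called. In cKO against WT with FAEE-SAP, 2 of 7, *S100a8* and *Retnlg*, were called lower, against 1.17% of all genes. *Elane* was at 0 in both WT FAEE-SAP libraries and in cKO FAEE-SAP replicate 1, and *Mpo* at 0 in both WT FAEE-SAP libraries. Eosinophil markers summed to 0.583 to 0.892 scaled RPKM over the 8 libraries (as deposited, to 1.48 and 1.13 in WT FAEE-SAP and to 0.432 to 0.870 in the other 6), *Epx* was at 0 in 6 of 8 libraries, at most 1 of the 7 passed the filter in a comparison of 2 groups, and none was called, although *Ccl11*, which attracts these cells, was present in every library. T or NK cell markers summed to 17.3 in WT saline replicate 2, the library with the most *Ccl5*, against 4.96 to 13.6 in the other 7, although as deposited a WT FAEE-SAP library had more. With FAEE-SAP in WT all 12 acinar markers fell, and 9 of 12 were called higher in cKO than in WT with FAEE-SAP, against the same 6.89% and 1.17% of all genes. In the other lists, with FAEE-SAP in WT, 1 of 5 duct, 1 of 8 B or plasma cell, 1 of 6 lymphatic, and 2 of 5 adipocyte genes tested were called higher. There, 1 of 6 islet genes was called lower. In cKO against WT with FAEE-SAP, 3 of 6 islet genes tested were called higher. The same shares of all genes stand beside these counts. No mast cell, dendritic cell, fibroblast, endothelial, or mesothelial marker was called in any comparison of 2 groups.

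**Figure D5:**
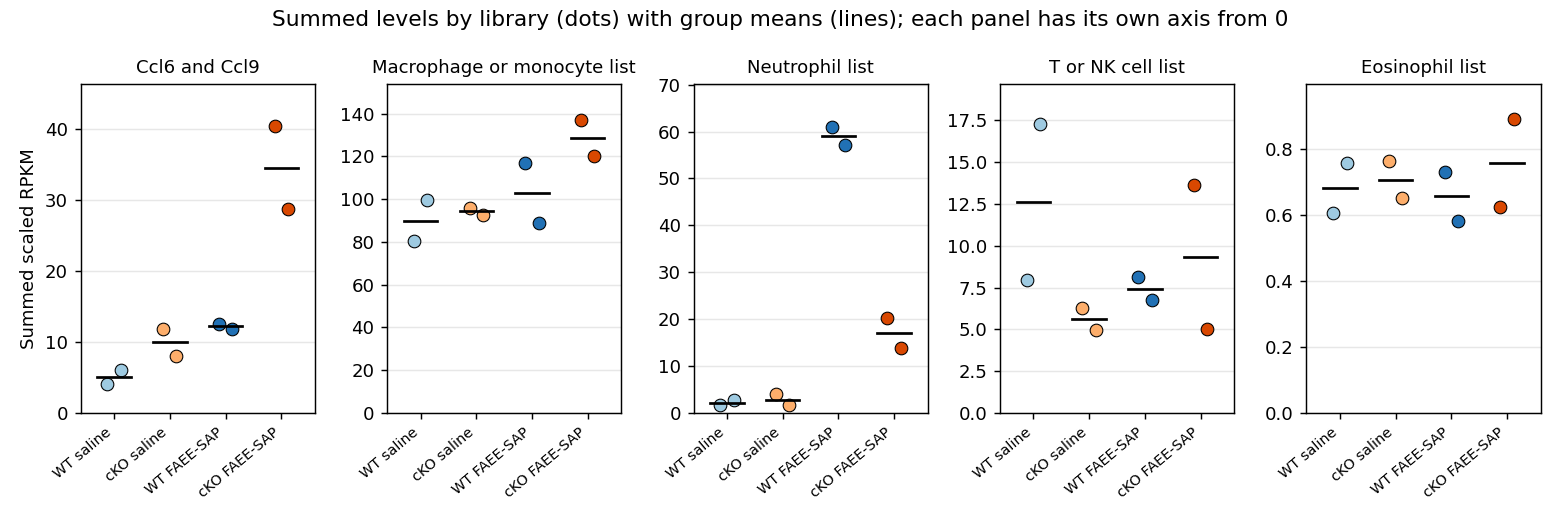
Summed scaled RPKM of *Ccl6* and *Ccl9* and of 4 marker lists, with 1 dot per library, a line at each group mean, and an axis from 0 in each panel. *Ccl6* and *Ccl9* are highest in cKO FAEE-SAP (40.4 and 28.8), the neutrophil sum in WT FAEE-SAP (60.9 and 57.2), the macrophage sum in cKO FAEE-SAP on this scale but not as deposited, and the eosinophil sum stays under 1 in all libraries on this scale.

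As a description, the genes whose levels were most like those of *Ccl2* over the 8 libraries, among 7369 genes with a mean of at least 1 RPKM, were *Gm16174* (Pearson r = 0.98), *Cstb* (0.97), *Pdgfrb* (0.97), *Tubb6* (0.96), and *Arpc2* (0.96). For *Ccl6* they were *Adam15* (0.98), *Anxa2* (0.97), *Hsd17b12* (0.96), *Cxx1b* (0.95), and *S100a6* (0.95). These libraries fall into 4 groups and share their scaling, so no p is given. The 2 sets of 5 genes have no gene in common.

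By exact matches between annotated transcripts, these genes shared little sequence with other genes. No 50-base stretch of the transcripts of 9 members occurs in another gene's transcript. In *Ccl9* 1.97% of such stretches do, in transcripts of 250 other genes. Near matches, reverse complements, and the genome outside transcripts were not searched. *Gm17268* and *E230016K23Rik* lie across *Ccl2* and *Ccl6* on the opposite strand, but share 0 exonic bases with them and were at most 0.0492 scaled RPKM.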

How the data were processed

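Total RNA of the pancreas was made into directional libraries, sequenced in pairs, filtered with fastp, and mapped to GRCm38.p6 with CLC Genomics Workbench by the authors, who deposited RPKM for 48709 genes in each library. How RPKM were computed, and whether strand was used, is not given in the sources used here. Libraries were scaled by the median of ratios over 10985 genes. Genes with at least 0.5 RPKM in at least 2 libraries of a comparison were tested on log2(scaled RPKM + 0.1), which understates changes of low genes, with limma 3.58.1 (intensity trend) in R 4.3.3, and p-values were adjusted by Benjamini-Hochberg over all genes tested. Each comparison of 2 groups used its own 4 libraries, the interaction all 8, and comparisons share libraries. Regrouping 2 against 2 libraries cannot give a p under 0.333.

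The low values step by 1 read and gave the library totals, and 84.0% to 85.5% of values under 20 reads were whole within 0.1. Reads so recovered summed to 100.3% to 105.7% of the totals, so they are approximate and were used for counting intervals (exact binomial, 95%) and floors of 3 reads per library only. Symbols were matched to GENCODE vM21 for 95.1% of genes. Promoters were aligned with Biopython 1.88. On simulated data of 10649 genes for FAEE-SAP against saline in WT, 99.2% of genes changed 4-fold or more were recovered, and 0% of calls were unchanged genes. For cKO against WT with FAEE-SAP (10800 genes) these were 96.9% and 1.97%. The simulation gave every gene the same set spread between libraries, and members such as *Ccl7* varied more. *Ccl7* was uncalled with FAEE-SAP in WT at a log2 fold change of 3.41 (SE 0.94). The rates are thus no measure of power for such genes.

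The members, the gene lists, and the tests were chosen with earlier results of these data known. Text names the 10 members, called genes of 3 lists written from general knowledge (up to 5 each) with a few receptors, up to 2 called genes of each cell type list, and the 5 genes most like *Ccl2* and *Ccl6*. *Ccl21c* and *Itgam* were not analysed here, nor were the other assays of the study. Of the lists and sequences made, 1 receptor gene and 1 of the 10 coding windows are not reported here. Replicate numbers are shared between groups, and no label says they pair samples.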

Additional observations from a re-analysis of the deposited data

Results flagged for a closer look

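*Ccl8* drew attention because its FAEE-SAP libraries lay on opposite sides of the saline mean in the 2 genotypes. Against the mean of the saline libraries of the same genotype, 1.01 scaled RPKM in WT and 1.08 in cKO, both WT FAEE-SAP libraries were lower (0.169 and 0.309) and both cKO FAEE-SAP libraries were higher (3.18 and 1.36). In cKO the single saline libraries (1.42 and 0.750) overlapped those with FAEE-SAP, and the change did not pass the limma test (log2 fold change 0.95, adjusted p = 0.573). The difference of the effects, cKO minus WT, was 2.69 on the log2 scale (SE 0.63, limma adjusted p = 0.203) and did not pass the threshold.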

How the results depend on the processing

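Members called with FAEE-SAP in WT numbered 5, against 6 on the values as deposited (*Ccl7* and *Ccl11* gained, *Ccl8* lost), 1 with no filter, and 3 with a pseudocount of 1. Leaving out each library gave 0 to 2, and without a WT FAEE-SAP library *Ccl2*, *Ccl3*, and *Ccl7* could not pass the filter. In cKO 0 were called, and 1 (*Ccl9*) with all 8 libraries in 1 model. For cKO against WT with FAEE-SAP, 2 were called, against 3 as deposited (*Ccl8* and *Ccl11* gained, *Ccl6* lost), 1 with quantile normalization, a pseudocount of 0.01, or limma without trend, 0 with no filter or a pseudocount of 1, and 4 with all 8 libraries in 1 model, and leaving out each library gave 0 to 2. In the interaction 0 were called, and 2 (*Ccl3* and *Ccl11*) on the values as deposited. With saline 0 were called under all alternatives run.

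Correlation of the deviations of same-numbered libraries across 11133 genes was -0.52 to 0.40 over the 6 pairs of groups, positive in the 3 pairs without WT saline and negative in the 3 with it. No label pairs the libraries and not every pair was over 0.1, so they were not treated as paired, and whether the numbers mark a shared batch was not settled. With replicate number as a block, the members called were 4, 3, 5, 0, and 0 in the order of FAEE-SAP in WT, in cKO, cKO against WT with FAEE-SAP, with saline, and the interaction, and genes called over the whole table were 533, 136, 717, 0, and 0 against 751, 5, 129, 0, and 8. Exchanging the numbers of the WT saline libraries, an alternative added after the data were seen, gave 6 members for FAEE-SAP in WT, 0 with saline, and 0 in the interaction, and 1110, 2, and 68 genes.

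Over the 35 log2 fold changes of single members, 468 of 547 alternatives kept direction and side of the threshold, and 28 reversed. This total counts uncalled results too. Between genotypes with FAEE-SAP, *Ccl6* kept its call in 5 of the 15 alternatives that tested it, and *Ccl3* in 11 of 13. With FAEE-SAP in WT, calls were kept in 13 of 14 for *Ccl2*, 14 of 14 for *Ccl3*, 8 of 16 for *Ccl6*, 8 of 15 for *Ccl8*, and 10 of 16 for *Ccl9*. On the values as deposited, *Ccl5* turned to 0.13 (WT), 0.082 (cKO), -0.75 (genotype, FAEE-SAP), and -0.045 (interaction). *Ccl11* and *Ccl8* turned to -0.22 and -0.24 with saline, and *Ccl6* and *Ccl9* to -0.10 and -0.22 in the interaction. The scaling itself shifts all genes here. With 1 library left out, the lone library of a group being assumed to vary like the other groups, these log2 fold changes changed sign. For FAEE-SAP in cKO, *Ccl11* ranged from -0.016 to 0.12 and *Ccl5* ranged from -1.28 to 0.21. For cKO against WT with FAEE-SAP, *Ccl2* ranged from -1.44 to 0.0032, *Ccl7* ranged from -2.27 to 0.23, and *Ccl5* ranged from -0.57 to 0.90. For cKO against WT with saline, *Ccl8* ranged from -0.39 to 0.46, *Ccl11* ranged from -0.10 to 0.24, and *Ccl5* ranged from -1.30 to 0.47. For the interaction, *Ccl7* ranged from -1.98 to 0.52, *Ccl5* ranged from -0.30 to 1.45, and *Ccl2* ranged from -1.42 to 0.029. The cause of the other changes was not tested. Counts of calls over all genes that moved by over 1.5 times were as follows. FAEE-SAP in WT (751) gave 7270 as deposited, 269 with no filter, 431 with a pseudocount of 1, and 82 to 374 with 1 library left out. FAEE-SAP in cKO (5) gave 15 as deposited, 0 with no filter, 16 with all 8 libraries, and 0 to 5 with 1 library left out. Genotype with FAEE-SAP (129) gave 4427 as deposited, 79 with quantile normalization, 0 with no filter, 43 without trend, 296 with all 8 libraries, and 0 to 94 with 1 library left out. Genotype with saline (0) gave 2 as deposited and 1 with quantile normalization. The interaction (8) gave 791 as deposited, 19 with quantile normalization, 0 with no filter, 15 at an RPKM minimum of 2, 24 and 1 with pseudocounts of 1 and 0.01, 3 without trend, and 0 to 4 with 1 library left out.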
